A study of Mus musculus with 6 samples.

Results

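Pericyte-like mural cells were examined among the stromal cells of colon tumors that azoxymethane (AOM, a carcinogen) and dextran sulfate sodium (DSS, which damages the colon lining) induce in mice. Mural cells wrap the endothelial tube of blood vessels: pericytes sit on capillaries inside the basement membrane they share with the endothelium, and smooth muscle cells form the wall of larger vessels. Pericytes are recruited by PDGF-B through the receptor PDGFRB, are kept in their mural state by NOTCH3 signalling, and regulate vessel diameter through G protein-coupled receptors, cyclic GMP and potassium channels. They are usually told from fibroblasts by *Rgs5*, *Cspg4* (NG2), *Mcam* and *Notch3*.

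Cells were selected on detection of set D, the 6 genes *Rgs5*, *Notch3*, *Rgs4*, *Cspg4*, *Mcam* and *Esam*. A pericyte-like cell had at least 3 of them with transcripts, more of them than of each of 3 other sets of 6 fibroblast subtype genes (sets A, B and C), and fewer than 3 counts of *Myoc* and *Angptl7* together. Of 928 wells that passed the filter, out of 2304 wells in all, 92 were pericyte-like, 365 were assigned to set A, B or C by the same rule (109, 145 and 111) and 471 to none. All samples came from C57BL/6 mice that carry *Zeb1* fl/fl, sorted as viable EPCAM-, CD45- and CD31-negative single cells, with 1 plate of 384 wells per mouse. The 3 FibCtrl mice were Col6a1-Cre negative, and the 3 FibΔZeb1 mice carried the Col6a1-Cre transgene, which is meant to delete *Zeb1* in fibroblasts. Both sexes were used, as littermates matched in age, and the age of each mouse is not given in the sources used here. Mice are numbered 1 to 3 within each genotype. The Cre is driven by a *Col6a1* promoter, and pericyte-like cells had *Col6a1* transcripts themselves (1179, 1806 and 873 CPM in FibCtrl mice 1, 2 and 3 and 1942, 1249.6 and 243 CPM in FibΔZeb1 mice 1, 2 and 3). With Cre reporter alleles, the paper reports Cre activity in fibroblasts only. Transcripts of *Col6a1* do not show that the transgene was active, and Cre activity in pericyte-like cells was not measured here. FibΔZeb1 mouse 3 was sequenced in a run of its own.

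The transcript counts used here are the authors' estimates of mRNA molecules from molecular barcodes. The 6 plates summed to between 1575730 and 3699060 transcripts, a pericyte-like cell had a median of 11052 transcripts (range 1047 to 33739) and 3484 genes, and wells of sets A, B and C had a median of 13368 transcripts. Levels are given as CPM, counts per 1000000 transcripts of the summed pericyte-like cells of a mouse. The sums held 149593, 40714 and 136732 transcripts in FibCtrl mice 1, 2 and 3 and 697489, 37717 and 49329 in FibΔZeb1 mice 1, 2 and 3. FibCtrl mouse 2 and FibΔZeb1 mice 2 and 3 therefore rest on 4, 6 and 3 cells, and their levels are the least precise, since 3 counts already equal 73.7, 79.5 and 60.8 CPM in these mice.

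Of the 92 members, 63 had all 6 genes of set D, 17 had 5, 5 had 4 and 7 had 3. Those just inside the rule, with 3 genes, had a median of 4357 transcripts and a summed set D level of 205 to 6685 CPM (median 1397). Just outside were 51 wells with 2 genes of set D, with a median of 9049 transcripts and a median summed level of 318 CPM, and 6 wells with 3 genes that tied with or fell behind another set. The summed level in members with all 6 genes had a median of 5610 CPM.

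The promoters of 4 genes are printed because values of these genes recur in the results: *Col4a1*, which varied with its neighbour *Col4a2* from cell to cell, the neighbours *Kcnj8* and *Abcc9*, which encode 1 channel, and *Myl9*, which varied with *Acta2*. Each runs from 250 bases before to 50 bases after the start site that the RefSeq promoter table (GRCm38.p6) uses for the gene, 5′ to 3′ on the gene's strand. That site is the outer end of the gene's RefSeq coordinates in *Kcnj8*, and lies inside them by 492 bases in *Abcc9*, 63 in *Col4a1* and 56 in *Myl9*, so the *Abcc9* window is wholly within the gene. In *Col4a1* (chr8:11312777-11313076, minus strand) the capitals mark the 78 bases that also belong to the same window of *Col4a2* (chr8:11312555-11312854, plus strand), as the genes are read away from each other; the extent of this overlap depends on the start sites used. In *Kcnj8* (chr6:142571565-142571864, minus strand) and *Abcc9* (chr6:142702225-142702524, minus strand) the capitals mark TGGGAA, the core of the motif bound by the Notch effector RBPJ, and in *Myl9* (chr2:156775214-156775513, plus strand) a CArG box, the motif of serum response factor.
Col4a1: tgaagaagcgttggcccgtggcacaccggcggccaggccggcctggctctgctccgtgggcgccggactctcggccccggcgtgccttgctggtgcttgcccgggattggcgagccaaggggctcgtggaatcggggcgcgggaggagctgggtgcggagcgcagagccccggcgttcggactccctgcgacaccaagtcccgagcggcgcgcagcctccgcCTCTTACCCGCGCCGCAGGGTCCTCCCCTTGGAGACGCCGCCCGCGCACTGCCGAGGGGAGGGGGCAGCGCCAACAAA
Kcnj8: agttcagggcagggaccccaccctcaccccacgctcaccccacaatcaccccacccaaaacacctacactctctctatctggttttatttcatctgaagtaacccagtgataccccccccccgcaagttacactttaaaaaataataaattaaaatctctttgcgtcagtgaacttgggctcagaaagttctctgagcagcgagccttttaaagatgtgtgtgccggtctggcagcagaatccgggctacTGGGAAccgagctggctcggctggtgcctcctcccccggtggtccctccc
Abcc9: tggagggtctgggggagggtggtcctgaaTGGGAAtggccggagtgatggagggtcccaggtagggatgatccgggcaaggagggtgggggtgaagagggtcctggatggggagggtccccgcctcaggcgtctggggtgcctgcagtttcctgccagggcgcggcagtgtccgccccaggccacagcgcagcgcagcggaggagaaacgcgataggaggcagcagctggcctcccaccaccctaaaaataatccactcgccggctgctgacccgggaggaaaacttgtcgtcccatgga
Myl9: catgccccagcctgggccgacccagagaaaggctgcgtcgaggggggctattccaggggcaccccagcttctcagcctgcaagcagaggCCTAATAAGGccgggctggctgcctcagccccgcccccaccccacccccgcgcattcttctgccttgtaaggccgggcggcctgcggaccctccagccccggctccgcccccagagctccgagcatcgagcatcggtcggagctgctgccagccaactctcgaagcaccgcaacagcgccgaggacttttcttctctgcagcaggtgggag
TGGGAA, searched on both strands, is common: 25.6% of the 32851 RefSeq promoters of this length hold it. Of the set D genes and the 16 further mural markers, 14 had a promoter in the table and 7 of these genes held the motif, against 28.3% of all genes. In *Kcnj8* it lies at the start site, and in *Abcc9* 221 bases before the table's start site, which is 271 bases inside the gene's outer end. A CArG box was in 1.63% of all promoters and in 1 of the 13 contractile genes with a promoter in the table, *Myl9*, where it begins 161 bases before the table's start site and 105 before the gene's outer end. These are matches of letters, and binding was not measured.

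The genes that chose the cells are given first, as a description. *Rgs5*, a GTPase-activating protein that curbs G protein signals and a leading pericyte marker, was at 2129, 2769.8 and 2166 CPM in FibCtrl mice 1, 2 and 3 and 1251, 1542 and 1937 CPM in FibΔZeb1 mice 1, 2 and 3. Wells of sets A, B and C averaged 3.58 CPM over the 4 mice with at least 5 wells in both classes. *Notch3*, the mural Notch receptor, was at 1541, 1304 and 1224 CPM in FibCtrl mice 1, 2 and 3 and 1015, 1301 and 731 CPM in FibΔZeb1 mice 1, 2 and 3. Every mouse was above the mean of the other classes, and transcripts of *Notch3* were found in 98.9% and of *Rgs5* in 94.6% of members. *Rgs4* lies next to *Rgs5* on chromosome 1 (chr1:169655501-169695813 for *Rgs5* and chr1:169741477-169747642 for *Rgs4*, GRCm38.p6), 45.7 kilobases apart with no protein-coding gene between them, and ranged from 398 to 1406 CPM. The proteoglycan gene *Cspg4* ranged from 371 to 857 CPM, *Mcam*, an adhesion molecule, from 371 to 1144 CPM, and *Esam*, an adhesion molecule shared with endothelium, from 159 to 535 CPM.

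Which genes besides these set the cells apart was asked by subtracting, in each of these 4 mice, the log2(CPM + 10) of wells of sets A, B and C from that of the pericyte-like cells. The pseudocount makes the difference of weakly expressed genes smaller. Among 9576 genes with transcripts in at least 10% of either class, 517 (5.4%) were higher in all 4 mice with a mean difference of at least 1, and 784 (8.19%) were lower in all 4 with a mean of at most -1; the median over all genes was -0.05. Because the cells were selected on 24 of the genes, these differences are descriptions and carry no test, and differences are given as mean ± SD (n = 4 mice). Of the 16 mural markers outside the rule, 13 were higher and none was lower, with a median difference of 3.11. These markers had no part in the selection. Their list was chosen with earlier results of these data known, so it gives the label no independent support. A member had transcripts of a median of 11 of the 16 (range 1 to 16). Of the 77 listed genes outside the rule that met a criterion, 7 (*Flna*, *Hes1*, *Nr4a1*, *Col3a1*, *Col5a1*, *Ier2* and *Zeb1*) no longer did without 1 of the 4 mice, with means of 0.97, 0.97, 0.98, -0.91, -0.41, -0.93 and -0.85. That mouse was FibCtrl mouse 3 for *Hes1* and *Ier2* and FibΔZeb1 mouse 2 for the others.

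*Pdgfrb*, the receptor that ties pericytes to the vessel, stood at 1978, 1479.6 and 1349.9 CPM in FibCtrl mice 1, 2 and 3 and 1235, 1141 and 1097 CPM in FibΔZeb1 mice 1, 2 and 3, against 171 CPM in the other classes, a difference of 3.0 ± 0.63. It had transcripts in 96.7% of members. Its spread between mice was small beside that gap. The lowest mouse was still 1097 CPM, where the highest mouse of sets A, B and C pooled was 239 CPM and wells of set C alone had 326 CPM. The amine oxidase *Aoc3* differed by 5.15 ± 1.06 (482 to 996 CPM in members), the mitochondrial subunit gene *Ndufa4l2* by 4.87 ± 0.57, the gap junction gene *Gja4* by 4.40 ± 0.70 and the transcription factor gene *Ebf1* by 3.10 ± 0.26. *Anpep*, *Cd248* and *Steap4* were the 3 markers that met neither criterion. *Steap4* was uneven, at 127, 468 and 793 CPM in FibCtrl mice 1, 2 and 3 and 67.4, 1701 and 81.1 CPM in FibΔZeb1 mice 1, 2 and 3, so that the FibΔZeb1 mouse with 6 cells lay highest and the FibΔZeb1 mouse with 48 cells lowest. *Cd248*, which fibroblasts also make, was at 133 to 528 CPM in members and 379 CPM in the other classes.

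The 20 genes outside the rule with the largest difference, each found in at least 25% of members and higher in all 4 mice, were led by *Apold1*, a gene first known from vascular endothelium, with 1079.8, 393, 931 CPM in FibCtrl mice 1 to 3 and 922, 1062, 406 CPM in FibΔZeb1 mice 1 to 3. The other classes averaged 3.67 CPM, and the difference was 6.30 ± 0.67. *Ano1*, a calcium-activated chloride channel that also marks interstitial cells of Cajal, followed with 5.17 ± 0.65 and was found in 81.5% of members. *Kit*, the defining gene of interstitial cells of Cajal, was at 0 in 5 of the 6 mice and at 24.6 CPM, a single transcript, in FibCtrl mouse 2. The list went on with *Aoc3*, the olfactory receptor gene *Olfr558* (5.05 ± 0.46, 70.7% of members), *Ndufa4l2*, the muscle filament gene *Des*, the Notch target *Heyl*, *Gja4*, the endothelin receptor gene *Ednrb* and *Atp1b2*, a subunit of the sodium pump. *Ephx3*, the laminin receptor subunit *Itga7*, the adrenergic receptor gene *Adra2a*, *Rgs16*, *Egflam*, the vessel-destabilizing ligand *Angpt2*, *Rasl12*, *Pcp4l1*, *Fabp5* and the matrix gene *Tinagl1* completed it, with differences from 3.88 to 4.21.

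**Figure D1:**
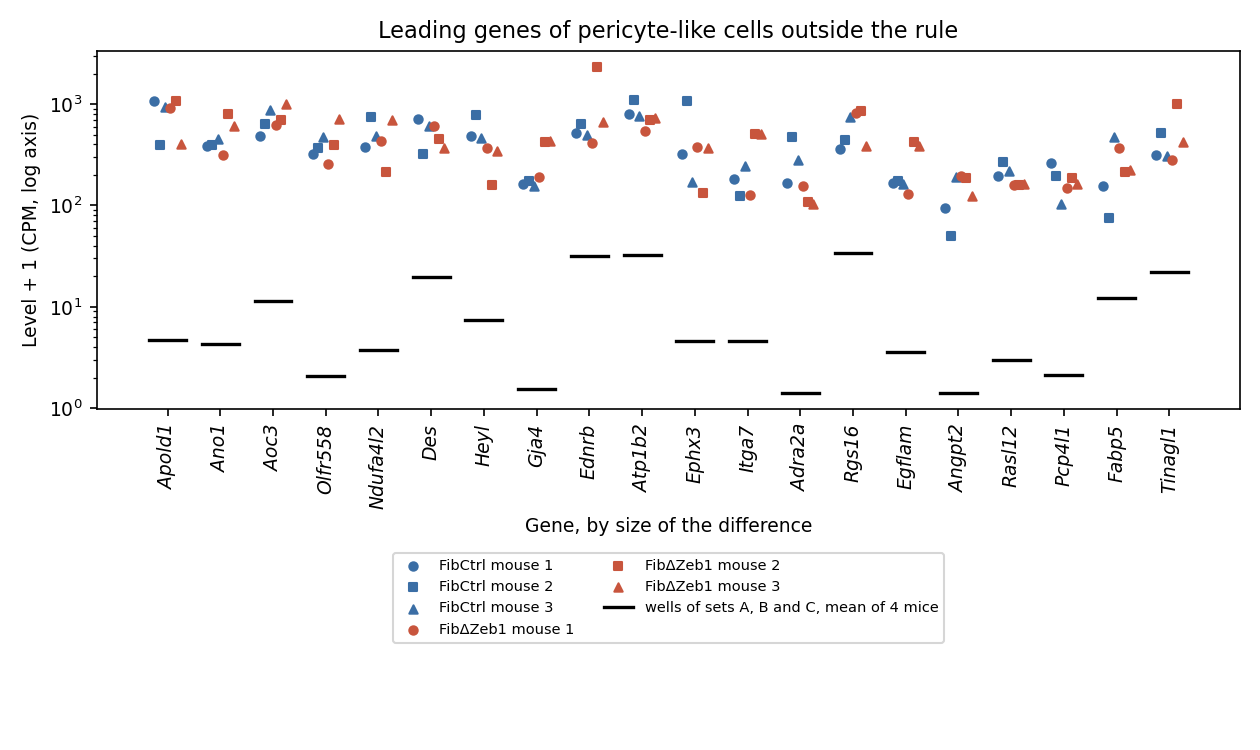
Levels of the 20 genes outside the rule with the largest difference, in order, as CPM + 1 on a log axis; each point is the sum of the pericyte-like cells of 1 mouse and the bar is the mean of wells of sets A, B and C over 4 mice. Every point lies above its bar, from *Apold1* (393 to 1079.8 CPM against 3.67) to *Tinagl1* (279.8 to 1009 CPM against 21.2).

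Genes of the contractile machinery were higher as a group. Of 16, 13 were higher and none was lower than in wells of sets A, B and C pooled, with a median difference of 1.97. Wells of set C alone came closer to the members for some of the 13. *Tpm1* averaged 1916 CPM in members (4 mice) and 1533 CPM in set C, and *Cald1* 1872 and 1275 CPM. *Flna* was at 1246 and 868 CPM and *Actn1* at 767 and 625 CPM. Others stayed further apart, such as *Myh11* at 756 and 99.7 CPM and *Mylk* at 1246 and 397 CPM. The difference from set C alone was not tested. *Acta2*, smooth muscle actin, was at 2309, 2666 and 4119 CPM in FibCtrl mice 1, 2 and 3 and 5233, 3780.3 and 5908 CPM in FibΔZeb1 mice 1, 2 and 3. All 6 mice were above the mean of the other classes, which was 594 CPM and reached 1346 CPM in wells of set C alone. The intermediate filament gene *Des* differed by 4.69 ± 1.28, smooth muscle myosin *Myh11* by 3.84 ± 0.94, the regulatory light chain *Myl9* by 3.08 ± 1.81, its kinase *Mylk* by 2.96 ± 1.44 and the actin-binding *Tagln* by 2.59 ± 1.35. *Actg2*, the actin of visceral smooth muscle, met neither criterion, with 302, 24.6 and 535 CPM in FibCtrl mice 1, 2 and 3 and 885, 0 and 1119 CPM in FibΔZeb1 mice 1, 2 and 3. It was thus high in some mice and at 0 in the mouse with 6 cells. *Cnn1* was found in 16.3% of members and only in FibCtrl mouse 1 and FibΔZeb1 mouse 1, at 6.68 and 70.3 CPM.

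Members differed from one another in how many of 6 smooth muscle markers (*Myh11*, *Actg2*, *Cnn1*, *Des*, *Lmod1*, *Synpo2*) had transcripts. None was found in 3 cells, 1 in 9, 2 in 14, 3 in 20, 4 in 29, 5 in 12 and all 6 in 5. Cells with 4 or more made up 46 of 92, so the selected cells also took in cells with most of the smooth muscle markers. *Actg2* and the pericyte channel *Kcnj8* were found together in 36 cells, *Actg2* alone in 15, *Kcnj8* alone in 25 and neither in 16. These numbers depend on depth. When every well was thinned to 1000 barcodes, *Acta2* was found in 77.2% of members (93.5% before) and 48.6% of set C wells, *Myh11* in 43.5% and 8.11%, *Des* in 41.3% and 0%, and *Kcnj8* in 27.2% and 7.21%. No member fell below 1000 barcodes.

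Within FibΔZeb1 mouse 1, which gave 48 of the 92 cells, several contractile genes varied together. Spearman's rho across these cells, which share 1 library and differ in depth, was 0.84 for *Acta2* and *Myl9*, 0.78 for *Acta2* and *Tpm2* and 0.75 for *Tagln* and *Myl9*, while *Acta2* and the cells' transcripts had 0.21. *Des* followed them less closely, with 0.29 for *Myh11*, 0.37 for *Acta2* and 0.53 for *Tagln*. *Acta2* had 0.11 with *Rgs5*, 0.01 with *Notch3*, -0.03 with *Pdgfrb* and 0.44 with *Aoc3*. *Col4a1* and *Col4a2*, the basement membrane collagen pair, had 0.86, with 0.40 and 0.44 against the cells' transcripts. Over all members, pooled across mice, *Acta2* had a lower quartile of 859.8, a median of 3133 and an upper quartile of 6827 CPM per cell. *Notch3* had 817, 1121 and 1491 CPM. Detection of *Notch3* helped to select the cells and that of *Acta2* did not, so these spreads cannot be compared.

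**Figure D2:**
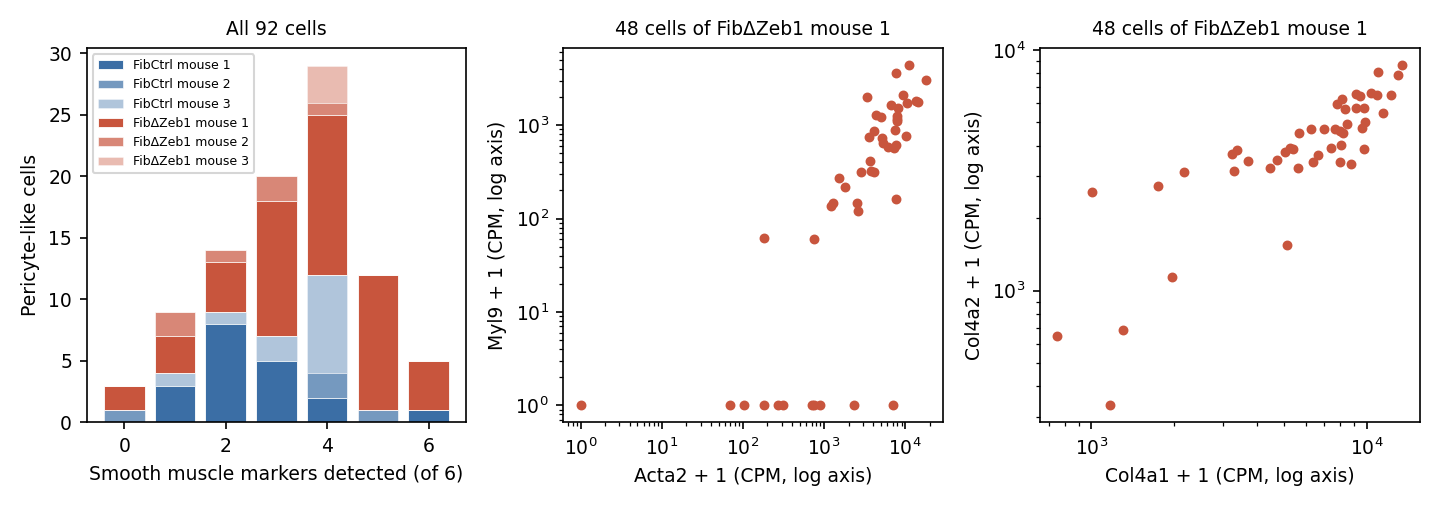
Left, number of pericyte-like cells (y axis) by the number of 6 smooth muscle markers with transcripts (x axis), stacked by mouse; middle and right, CPM + 1 per cell on log axes for *Acta2* and *Myl9* and for *Col4a1* and *Col4a2* in the 48 cells of FibΔZeb1 mouse 1. The commonest number of markers is 4, in 29 cells, and both pairs rise together (rho 0.84 and 0.86).

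Receptors, effectors and channels that set vessel tone were higher as a group. Of 18 genes outside the rule, 4 of which are also mural markers, 17 could be examined, 13 were higher and *Rgs10* was lower, with a median difference of 2.39. *Kcnj8* and *Abcc9* encode the pore Kir6.1 and the SUR2 subunit of one potassium channel and lie next to each other on chromosome 6, 16.2 kilobases apart (chr6:142564837-142571614 and chr6:142587862-142702766). *Kcnj8* was at 395, 295 and 629.8 CPM in FibCtrl mice 1, 2 and 3 and 228, 1089.7 and 223 CPM in FibΔZeb1 mice 1, 2 and 3. *Abcc9* was at 911, 123 and 806 CPM in FibCtrl mice 1, 2 and 3 and 327, 584 and 426 CPM in FibΔZeb1 mice 1, 2 and 3. FibΔZeb1 mouse 2 was highest for *Kcnj8* and FibCtrl mouse 1 for *Abcc9*, so the levels of the pair did not share an order over mice, and 51 members had transcripts of both, 10 of *Kcnj8* alone and 21 of *Abcc9* alone. The soluble guanylate cyclase subunits *Gucy1a3* and *Gucy1b3*, neighbours on chromosome 3 that answer nitric oxide, differed by 2.88 ± 1.35 and 3.13 ± 1.11, and their effector kinase *Prkg1* by 3.12 ± 0.46. The endothelin receptor genes *Ednra* and *Ednrb* differed by 1.82 ± 0.18 and 4.24 ± 1.73. *Ednrb* was at 515, 640.3 and 491 CPM in FibCtrl mice 1, 2 and 3 and 415, 2321 and 670.2 CPM in FibΔZeb1 mice 1, 2 and 3, with FibΔZeb1 mouse 2 apart from the other mice. Beside *Rgs5* and *Rgs4* of the rule, *Rgs16* was higher (4.07 ± 1.11), whereas *Rgs2*, another regulator of G protein signals, was at 0 to 53 CPM in members and 139 CPM in the other classes.

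Of 13 Notch pathway genes outside the rule, 10 could be examined, 6 were higher and 1 was lower, with a median of 1.86. Among receptors, *Notch1* differed by 1.98 ± 0.74 and *Notch2* by 0.05 ± 0.56. *Jag1*, the ligand through which neighbouring mural cells signal to each other, was at 127, 393 and 219.6 CPM in FibCtrl mice 1, 2 and 3 and 248, 26.5 and 284 CPM in FibΔZeb1 mice 1, 2 and 3. Wells of the other classes had 14.9 CPM, while *Jag2*, *Dll1* and *Dll4* had no transcript in any member. Of the targets, *Heyl* was at 488, 787 and 461 CPM in FibCtrl mice 1, 2 and 3 and 365, 159 and 345 CPM in FibΔZeb1 mice 1, 2 and 3, a difference of 4.47 ± 0.51. *Nrarp* differed by 3.06 ± 0.90, *Hey1* by 1.73 ± 1.17 and *Hes1*, which is expressed broadly, by 1.28 ± 0.88. *Hey2* was higher in 3 of 4 mice and at 0 in FibΔZeb1 mouse 2. The DNA-binding effector *Rbpj* was at 53 to 161 CPM in members and 97.7 CPM in the other classes.

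Ligands and receptors of vessel growth were mixed: of 17 genes, 14 could be examined, 6 were higher and 4 were lower, with a median of 0.73. *Angpt2* was at 93.7, 49.1 and 190.2 CPM in FibCtrl mice 1, 2 and 3 and 194, 186 and 122 CPM in FibΔZeb1 mice 1, 2 and 3, and near absent from the other classes (0.404 CPM). *Angpt1*, the ligand that pericytes are best known for, was found in 8.70% of members and 16.2% of the other wells. *Pdgfa* differed by 3.39 ± 0.49, the sphingosine receptor *S1pr3* by 3.74 ± 0.56 and the semaphorin and VEGF co-receptor *Nrp1* by 1.41 ± 0.45. *Pdgfra*, the fibroblast receptor, was at 0 to 53.5 CPM in members and 775 CPM in the other classes, a difference of -4.44 ± 1.25. Thinned to 1000 barcodes, *Pdgfra* was found in 1.09% of members and in 40.4%, 36.6% and 59.5% of wells of sets A, B and C.

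Basement membrane genes did not move as one. Of 14, 13 could be examined, 3 were higher, 2 were lower and 8 met neither criterion, with a median of 0.49. The 3 that were higher were collagens: *Col4a1* at 5709.6, 3957 and 5753 CPM in FibCtrl mice 1, 2 and 3 and 7338, 1675 and 4461 CPM in FibΔZeb1 mice 1, 2 and 3. Its partner *Col4a2* was at 3680.4, 3398 and 3860.2 CPM in FibCtrl mice 1, 2 and 3 and 4624, 1464 and 3841 CPM in FibΔZeb1 mice 1, 2 and 3. FibΔZeb1 mouse 2 was lowest for both, the other classes averaged 1554 and 1107 CPM, and the differences were 1.58 ± 0.53 and 1.55 ± 0.41. *Col18a1*, the source of endostatin, differed by 1.23 ± 0.36. Wells of set C alone came closer to the members for these collagens. *Col18a1* averaged 2614 CPM in members (4 mice) and 1977 CPM in set C, *Col4a1* 5119 and 2393 CPM, and *Col4a2* 3407 and 1639 CPM. The members of FibΔZeb1 mouse 2 lay below set C for each of them. The difference from set C alone was not tested. The laminin chain *Lamc1* and the proteoglycan *Hspg2* (perlecan) were lower, by -1.60 ± 1.17 and -1.50 ± 0.59. *Sparc*, a collagen-binding protein, was the most abundant gene of this list, with a median of 12464 CPM per cell, and differed by 0.49 ± 0.68 from the other classes, all of which had its transcripts.

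The fibroblast matrix list went the other way: 10 of 15 were lower, 1 was higher, and the median was -1.58. *Lum*, *Dpt*, *Fbln1* and *Fbln2*, secreted proteins of fibroblast matrix, differed by -4.31 ± 1.14, -4.80 ± 1.5, -4.51 ± 1.12 and -4.20 ± 0.74. *Dcn*, a small matrix proteoglycan, was at 4765, 319.8 and 623 CPM in FibCtrl mice 1, 2 and 3 and 2392, 265 and 4359 CPM in FibΔZeb1 mice 1, 2 and 3. FibCtrl mouse 1 was highest and FibΔZeb1 mouse 2 lowest, and all were below the mean of the other classes (12904 CPM). The fibrillar collagens *Col1a2* and *Col3a1* were lower, by -1.58 ± 0.90 and -1.31 ± 0.86, yet still found in 97.8% and 97.8% of members. *Col6a3* was the 1 gene that was higher than in wells of sets A, B and C pooled (1.46 ± 0.46). It averaged 2138 CPM in members (4 mice), 740 CPM in the pooled wells and 1378 CPM in set C alone. FibΔZeb1 mouse 3, which was not among the 4 mice, had 589 CPM in its members. The difference from set C alone was not tested. *Col6a1*, whose promoter drives the Cre, differed by -0.53 ± 0.62, which met neither criterion.

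Of 13 inflammatory genes, 11 could be examined, 5 were lower, among them complement *C3* (-5.34 ± 1.26) and the chemokine *Cxcl12* (-2.69 ± 1.88), and 1, the cytokine *Il6*, was higher. *Il6* was at 672, 590.2 and 575 CPM in FibCtrl mice 1, 2 and 3 and 741, 2824 and 528 CPM in FibΔZeb1 mice 1, 2 and 3. The mean difference was 2.48 ± 1.22, and FibΔZeb1 mouse 2 lay above all others. Transcripts of *Il6* were found in 45.7% of members, with a highest cell of 8160.1 CPM, so the sums rest on part of the cells. The chemokine *Cxcl1* was at 1111, 24.6 and 908 CPM in FibCtrl mice 1, 2 and 3 and 1206, 4210.1 and 2089 CPM in FibΔZeb1 mice 1, 2 and 3, beside 1476 CPM in the other classes. Among 10 immediate early genes, whose transcripts can also rise during tissue dissociation, *Nr4a1* was higher and *Ier2* lower, with a median of -0.18. Their summed level was 8331 to 14409.7 CPM in FibCtrl mice and 11602 to 31855 CPM in FibΔZeb1 mice, the highest being FibΔZeb1 mouse 2; its part in the levels of *Il6* and *Cxcl1* was not tested.

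**Figure D3:**
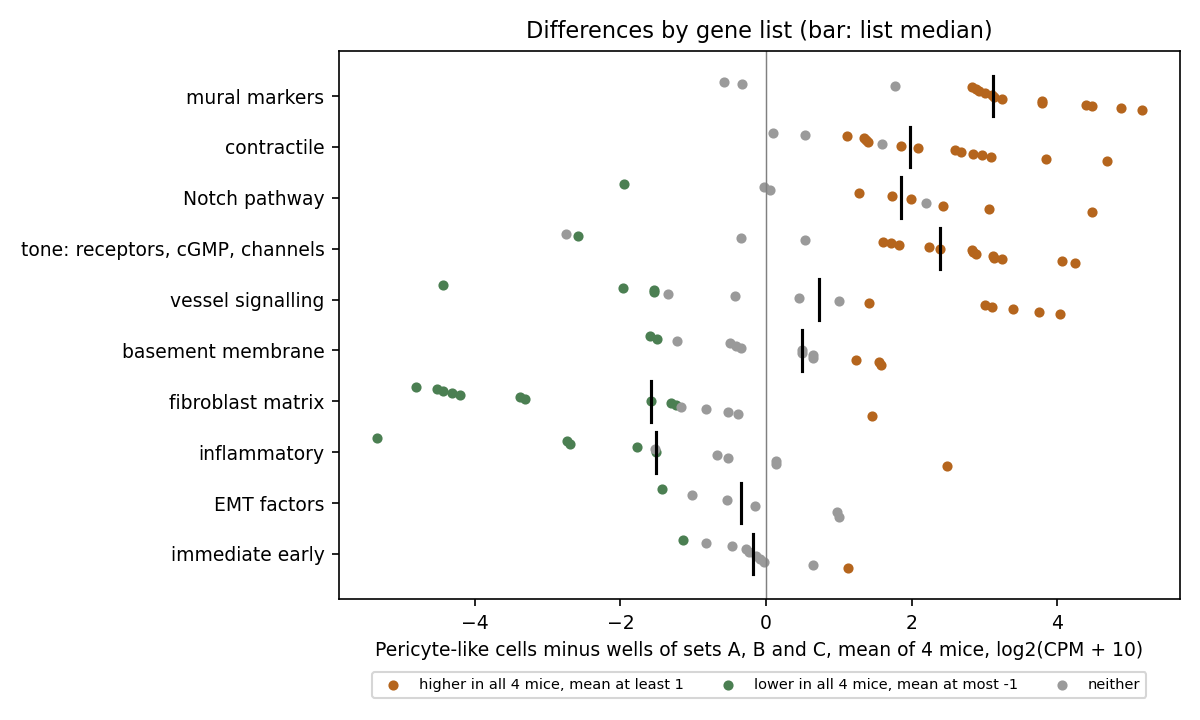
Mean difference between pericyte-like cells and wells of sets A, B and C over 4 mice (x axis, log2 of CPM + 10) for each examined gene outside the rule (points), by gene list (y axis), with the list median as a bar. Medians run from 3.11 for mural markers to -1.58 for fibroblast matrix.

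Markers of the sorted-out cells were checked in the members. The filter itself limited *Ptprc*, of the immune list, and *Epcam*, of the epithelial list, so low levels of these genes are no check. Of 8 endothelial genes, *Cdh5*, *Kdr* and *Cldn5* had no transcript, and *Pecam1* (CD31) had 1, in FibCtrl mouse 3. The summed level of the 8 was 234 to 467 CPM in FibCtrl mice, 133 to 284 CPM in FibΔZeb1 mice and 6.46 to 39.9 CPM in the other classes. Most of this sum came from 2 genes: the VEGF receptor *Flt1*, which differed by 3.10 ± 0.10 and was found in 40.2% of members, and *Tie1*, an endothelial receptor, found in 54.3%. *Tie1* was at 120.3, 270.4 and 139 CPM in FibCtrl mice 1, 2 and 3 and 174, 0 and 243 CPM in FibΔZeb1 mice 1, 2 and 3. It was present in 5 of 6 mice, and 28 members held both genes, although the genes that define endothelium were at or near 0. For immune genes the sums were 0 to 295 CPM in FibCtrl and 35.8 to 81.1 CPM in FibΔZeb1 mice, with *S100a8* and *S100a9* found in 19.6% and 21.7% of members and *Cd3e*, *Cd79a* and *C1qa* at 0. Epithelial genes summed to 6.68 to 147 and 0 to 203 CPM, glial genes to 0 to 14.6 and 0 to 2.87 CPM. Of 8 proliferation genes 3 could be examined, and *Mki67* was higher (1.51 ± 0.67; 13% of members and 15.9% of the other wells had its transcripts).

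Whether the genotypes differed in how many of these cells were recovered was asked per mouse. They made up 9.27%, 3.64% and 11% of kept wells in FibCtrl mice 1, 2 and 3 (19 of 205, 4 of 110 and 12 of 109) and 18.5%, 3.03% and 6.52% in FibΔZeb1 mice 1, 2 and 3 (48 of 260, 6 of 198 and 3 of 46). The genotypes overlapped, and FibΔZeb1 mice included both the highest and the lowest. The means were 7.97% ± 3.85 (SD, n = 3) and 9.34% ± 8.09, and an exact two-sided permutation test over mice gave p = 0.9, where 3 against 3 mice allow no p below 0.1. Exact 95% binomial intervals, which cover counting error only, reached from 13.9% to 23.7% in FibΔZeb1 mouse 1 and from 1.37% to 17.9% in FibΔZeb1 mouse 3. The direction rested on FibΔZeb1 mouse 1, without which the difference was -3.20 percentage points, and on FibCtrl mouse 2, without which it was -0.80. Cells were also lost to the limit on mitochondrial transcripts: 59 wells met the marker rule but not the filter, 52 of them with 10% or more mitochondrial transcripts.

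**Figure D4:**
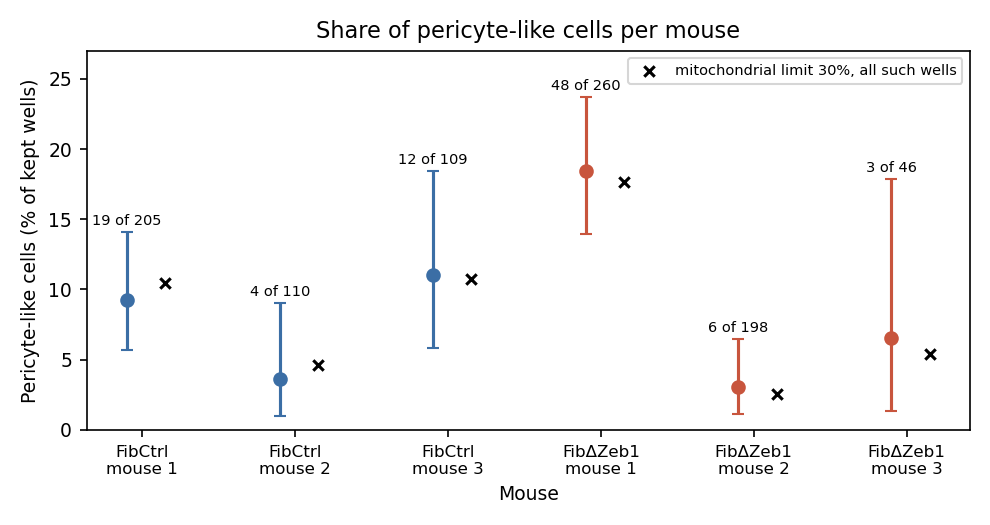
Pericyte-like cells as a percent of kept wells (y axis) in each mouse (x axis); points with exact 95% binomial intervals, cell numbers above them, and crosses for a mitochondrial limit of 30%. Shares lie between 3.03% and 18.5%, and the genotypes overlap under both limits.

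The targeted gene was read next. *Zeb1* summed to 5, 3 and 6 transcripts in the members of FibCtrl mice 1, 2 and 3 and to 32, 0 and 0 in FibΔZeb1 mice 1, 2 and 3, which is 33.4, 73.7, 43.9 CPM and 45.9, 0, 0 CPM. FibΔZeb1 mouse 1 lay within the FibCtrl range, and 18 of its 48 cells had *Zeb1* transcripts. The 0 in FibΔZeb1 mice 2 and 3 allows up to 79.5 and 60.8 CPM (3 counts per mouse), so a loss was not detectable at this depth. The means were 50.3 ± 20.9 and 15.3 ± 26.5 CPM (SD, n = 3), with p = 0.3 by an exact two-sided permutation test. In the mice with at least 10 members the difference had the other sign, 7.22 CPM higher in FibΔZeb1 mouse 1 than in the mean of FibCtrl mice 1 and 3. *Zeb1* was too low for the fit across genes, and edgeR without a filter gave a log2 fold of -0.42 ± 0.81 (SE, adjusted p = 0.998, Benjamini-Hochberg), and DESeq2 gave -1.10 ± 1.36 (SE, unadjusted p = 0.419). Counts come from the 3′ end of transcripts and need not show the removal of an exon, so they do not check the deletion. In wells of sets A, B and C, *Zeb1* was at 107, 105 and 91 CPM in FibCtrl mice and 55.5, 80.7 and 76 CPM in FibΔZeb1 mice. On the log2(CPM + 10) scale members differed from these wells by -1.42, -0.91, -0.23 and -3.18 in the 4 mice with enough cells. The last value is FibΔZeb1 mouse 2, with 0 counts and a floor of 79.5 CPM beside 80.7 CPM in its other wells, and without it the mean was -0.85. Before thinning, *Zeb1* was found in 29.3% of members and in 62.4%, 50.3% and 47.7% of wells of sets A, B and C. Members had fewer transcripts (median 11052 against 13368), and this difference in shares was not tested. Thinned to 1000 barcodes, *Zeb1* was found in 5.43% of members and in 11%, 3.45% and 6.31% of these wells. At this level few wells keep a transcript after thinning, so the thinned shares cannot decide whether members were lower. The paralog *Zeb2*, at 98.2 to 478 CPM, was higher in all 4 (0.98 ± 0.84, short of the mean of 1). Of 6 factors of epithelial-mesenchymal transition none was higher, and *Zeb1* met the criterion for lower only with FibΔZeb1 mouse 2.

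Expression in the members was compared between genotypes over the 3 mice of each, which the selection did not use. edgeR's quasi-likelihood test on the summed counts called 0 of 1723 genes (0%) at an adjusted p under 0.05, 47 had an unadjusted p under 0.05, and DESeq2 called 0 of 13322, with 71 at an unadjusted p under 0.05. On counts simulated with the same library sizes the fit recovered 52 of 59 genes changed 4-fold and 66 of 66 changed 8-fold. The 8 genes given here, among those with the smallest p, are therefore values without a call. *Sat1*, of polyamine breakdown, was at 174, 98.3 and 249 CPM in FibCtrl mice and 267, 531 and 852 CPM in FibΔZeb1 mice, a log2 fold of 1.47 ± 0.49 (SE, as for the folds that follow). The genotypes did not overlap for it. *Atp5g1* (1.10 ± 0.38), the interferon response genes *Irf1* (2.09 ± 0.71) and *Ifi47* (1.11 ± 0.39), *Arhgdib* (1.24 ± 0.45) and the muscle LIM protein gene *Csrp2* (1.67 ± 0.61) also had folds above 0. *Nfia* (-1.09 ± 0.36) and *Peli1* (-0.98 ± 0.34) had folds below 0. Unadjusted p-values of these 8 genes lay between 0.0138 and 0.0214, and every adjusted p was 0.998 (edgeR, Benjamini-Hochberg). Leaving out FibΔZeb1 mouse 3, the library of the other sequencing run, also left 0 genes.

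The genes that chose the cells are given by genotype as a description, with no test, because their detection selected the cells. Of the 6 genes of set D, 4 (*Rgs5*, *Rgs4*, *Cspg4* and *Esam*) were higher in every FibCtrl mouse than in any FibΔZeb1 mouse, where 3.95% of the 1723 genes tested were, and none was the other way, where 5.17% were. *Rgs4* was at 1099, 1034 and 1406 CPM in FibCtrl mice 1, 2 and 3 and 919, 398 and 487 CPM in FibΔZeb1 mice 1, 2 and 3. *Notch3* and *Mcam* overlapped. The count was 0 of 6 when the mitochondrial limit was 30% or when only genes named mt- were counted, settings that took in 139 and 138 cells. Outside the rule, *Pdgfrb* (-0.53 ± 0.29) and *Heyl* (-0.98 ± 0.41) were higher in every FibCtrl mouse, and *Gja4* (0.95 ± 0.43) was higher in every FibΔZeb1 mouse, out of 14 mural markers tested.

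Among contractile genes, too, none passed the adjusted test. Their median log2 fold over 12 genes tested was 0.33, beside 0.00 over all genes, and *Mylk* (0.66 ± 0.29) and *Flna* (0.27 ± 0.27) were higher in every FibΔZeb1 mouse. *Acta2* overlapped, at 3031 ± 959 CPM in FibCtrl and 4974 ± 1087 CPM in FibΔZeb1 mice (SD, n = 3), a log2 fold of 0.65 ± 0.31. Of 7 inflammatory genes tested, *Cxcl1* was higher in every FibΔZeb1 mouse (1.77 ± 0.79), and the median over them was 1.3. *Il6* (1.08 ± 0.58) and *Ednrb* (0.97 ± 0.59) overlapped, with FibΔZeb1 mouse 2 highest for both. The Notch list had a median of -0.47 over 6 genes tested, *Notch3* of the rule among them, with *Heyl* the 1 that did not overlap. None of the 11 basement membrane and 10 fibroblast matrix genes tested lay apart. Of all 1723 genes tested, 3.95% were higher in every FibCtrl mouse and 5.17% in every FibΔZeb1 mouse. Lists of this size would hold few such genes or none at these shares, so the counts are no result about the lists. The median number of transcripts per member was 7832, 8361 and 9824 in FibCtrl mice and 12626, 4701 and 15686 in FibΔZeb1 mice (exact permutation test p = 0.6), and mitochondrial transcripts had medians of 5.62% to 7.40% and 5.43% to 5.83%; their part in these differences was not tested.

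**Figure D5:**
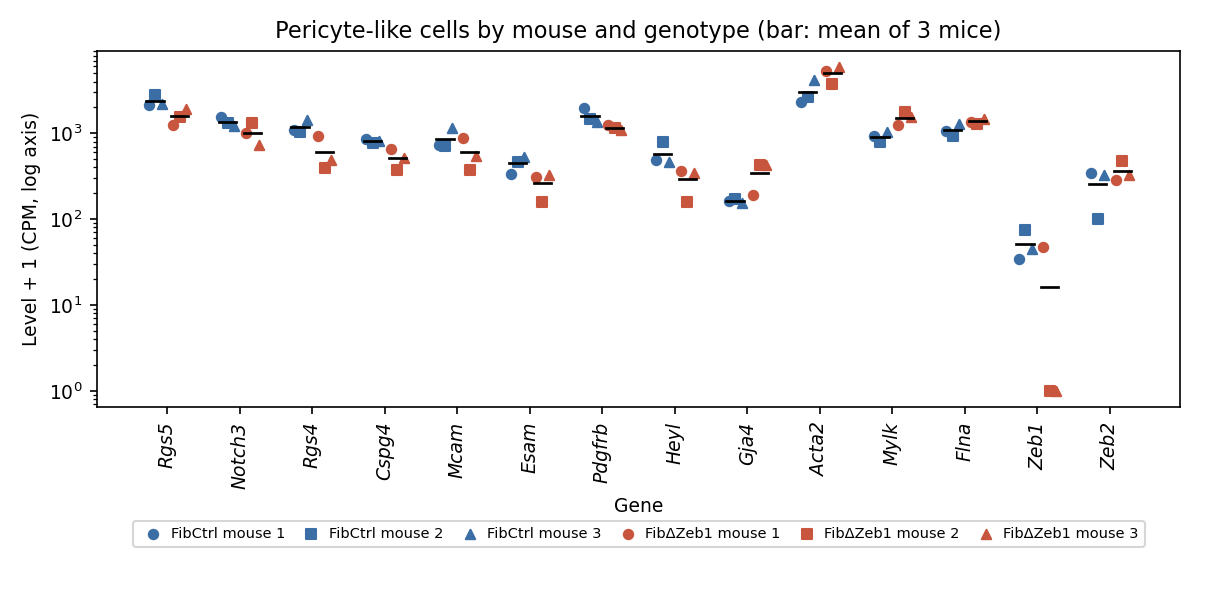
Levels in the pericyte-like cells of each mouse (CPM + 1, log axis) for set D and other named genes (x axis), with the mean of 3 mice as a bar. *Rgs5*, *Rgs4*, *Cspg4*, *Esam*, *Pdgfrb* and *Heyl* do not overlap and are higher in FibCtrl mice, *Gja4*, *Mylk* and *Flna* do not overlap and are higher in FibΔZeb1 mice, and no gene passed the adjusted test.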

How the data were processed

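Single cells of AOM/DSS colon tumors from 6 mice (3 per genotype) were measured by SORT-seq, a CEL-Seq2 protocol in 384-well plates that adds a molecular barcode to each mRNA. Reads were mapped by the authors with bwa to transcripts of GRCm38, and a script of the sequencing provider did the counting; the submitters' processing notes also name Cell Ranger 2.1.1. One deposited table holds barcode counts, the number of distinct barcodes of each gene in each well. The other holds the authors' estimated counts of transcripts, which correct the first for molecules that share a barcode. All wells are in both tables and no scaling was applied to them. Spike-in RNA (7.85% to 18.6% of a plate) was left out.

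Wells were kept with 100 to 6000 genes, under 10% transcripts of the 37 mitochondrial genes, and at most 1 rounded transcript each of *Ptprc* and *Epcam*. Wells were meant to hold 1 cell, no doublet caller was run, and no 2 plates held identical values. The 384 well names are the same on every plate, so cells were told apart by plate and well. Groups were taken from the genotype labels. The mouse was the replicate, so p-values set a genotype difference against the spread between mice. Each mouse was 1 plate, so the spread between mice cannot be told apart from that between plates. The members and gene lists were chosen with earlier results of these data known, so no list gives independent support. The 4 mice with at least 5 wells in both classes (85 members) entered the comparison with sets A, B and C, in which genes of the rule were left out of the lists.

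Transcript counts were summed over the members of each mouse, rounded and tested in R 4.3.3 with the quasi-likelihood test of edgeR 4.0.16 after TMM scaling and its default filter on low counts (Benjamini-Hochberg adjusted p under 0.05), and again with DESeq2 1.42.0. A standard error is the absolute log2 fold over the square root of F. Exact permutation tests used scipy 1.17.1. The fit was tested on simulated counts of 1725 genes, with the same variation between mice set for every gene and not estimated from these data. Named genes were all listed genes, the 20 with the largest difference outside the rule (at least 25% of members, higher in all 4 mice), and, since fewer than 10 genes passed, the 10 with the smallest p. Of these 10, 2 are not reported here. Alternatives changed the set D threshold, the mitochondrial genes and limit, the table, the pseudocount, the comparison wells, the mice, the scaling and the filter. Since FibΔZeb1 mouse 3 had a sequencing run of its own, results are also given without it.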

Additional observations from a re-analysis of the deposited data

Results flagged for a closer look

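The difference between pericyte-like cells and wells of sets A, B and C went in opposite directions in the genotypes for 2 of the named genes, over 2 mice of each genotype, and the difference between genotypes was not tested. For *Cxcl10*, an interferon-induced chemokine, it was -3.05 and -1.62 in FibCtrl mice 1 and 3 and 1.95 and 0.04 in FibΔZeb1 mice 1 and 2 on the log2(CPM + 10) scale, so that the FibΔZeb1 mean was 3.34 above the FibCtrl mean. The gene had transcripts in 10 of 92 members, and 404 of its transcripts lay in FibΔZeb1 mouse 1. For *Twist1*, a transcription factor gene of mesenchymal cells, it was -0.06 and -1.61 in FibCtrl and 0.61 and 0.42 in FibΔZeb1 mice, a gap of 1.35. FibCtrl mouse 1 thus showed almost no difference for *Twist1*, and the values of FibΔZeb1 mouse 2 rest on 6 cells for both genes.

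In wells that the filter removed, 59 met the marker rule of the pericyte-like cells: 14, 6 and 14 in FibCtrl mice 1, 2 and 3 and 11, 2 and 12 in FibΔZeb1 mice 1, 2 and 3. Of these, 52 had 10% or more mitochondrial transcripts. Under a limit of 30%, chosen after the data had been seen, 139 wells were members, with 33, 9 and 24 in FibCtrl mice and 56, 8 and 9 in FibΔZeb1 mice. No group had 4 or more mice, so no search for single mice far from their group was made.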

How the results depend on the processing

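Of 178 recomputed values, 157 kept their direction and side of the threshold, moved by less than the spread between mice or, for counts of genes, stayed near the main count. For example, 662 genes higher with a pseudocount of 1 counted as kept beside 517. The difference in share (main 1.37 percentage points) turned to -0.92 with at least 2 set D genes and to -0.070 with a mitochondrial limit of 30%, and ranged from -3.20 to 4.52 when 1 mouse was left out, below 0 without FibCtrl mouse 2 or FibΔZeb1 mouse 1. The difference in median transcripts per member (2332) ranged from -8.76, without FibΔZeb1 mouse 3, to 5483. *Zeb1* (-35.0 CPM) was 7.22 CPM higher in FibΔZeb1 when only mice with at least 10 members were used, which leaves 2 against 1 mouse and assumes that the lone mouse varies like the others, and -50.4 to -23.4 CPM without 1 mouse; planned fits that filter genes gave no log2 fold for it. The edgeR count of 0 genes became 5 without a filter (*Col10a1*, *Cxcl10*, *Cxcl9*, *Ifit1*, *Spp1*), 12 with RLE scaling and no filter, and 17 in mice with at least 10 members, and stayed 0 without any 1 mouse. The 4 set D genes higher in every FibCtrl mouse became 0 with a limit of 30% and 0 with mt- genes only, where the count itself and all its settings were chosen once the data were known; the cause was not tested. With a pseudocount of 50 the medians fell to 2.15 for mural markers, 1.02 for Notch and 1.56 for vessel tone, with 266 genes higher and 273 lower; with 1 they were 2.70 for Notch, 3.05 for vessel tone and -0.014 for basement membrane, with 1245 genes lower. Without 1 mouse, medians ranged from 2.27 to 2.69 for vessel tone and from -0.41 to 0.043 for immediate early genes, above 0 without FibΔZeb1 mouse 1. No paired analysis was possible because the labels give no replicate numbers shared between genotypes. Levels under 3 counts per mouse, up to 79.5 CPM, cannot be told from 0.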
